A study of Mus musculus with 16 samples.

Results

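Liver tumours of 4 Axin1-deleted male mice were set against non-tumoral liver next to the tumour in the same animal. The mice were those whose sample titles give both tissues (mice 121, 124, 123 and 81), which takes 10 of the 16 arrays in the series: 6 tumours and 4 adjacent livers, 1 array each. Mouse 121 gave 3 tumours (a tumour without a number, tumour 2 and tumour 3), which were averaged before subtraction, so every mouse contributed 1 difference. All 10 arrays came from animals that carried Axin1 fl/fl and the Alfp-Cre transgene, were 16 months old, and belong to a line in which tumours appear after 9 months. Liver of 3 control mice of the same age and sex without the deletion (arrays 10, 11 and 12) served as background. Tumours of 2 other mice (90 and 93) and adjacent liver 1931 had no partner of the same number and were left out. Alfp-Cre acts in embryonic hepatocytes, per the labels, so the adjacent liver carries the deletion too, and the comparison is between tumour and deleted liver, not between deleted and intact liver.

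Axin1 is a scaffold of the complex that phosphorylates beta-catenin and sends it for degradation. When the complex fails, beta-catenin accumulates and activates Wnt target genes, which in the normal liver are expressed by hepatocytes around the central vein, among them glutamine synthetase (Glul). Liver tumours with mutant AXIN1 and those with mutant beta-catenin are known to differ in these target genes, and dividing tumour cells commonly lose part of the metabolic program of the mature hepatocyte.

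Values are log2 expression levels after the submitters' normalization, and a difference of 1 is a 2-fold change. They ran from 1.47 to 12.85 over all arrays, and array medians ran from 4.37 to 4.5. The arrays were liver by their defining markers: albumin (Alb) read 11.89 to 12.50 on the 10 arrays, and the mean level of 24 secreted hepatocyte proteins was 11.47 to 11.89 in tumours, 11.67 to 11.72 in adjacent livers and 11.63 to 11.75 in controls. Control array 10 stood apart from the other controls, with mean levels of 7.77 for Kupffer cell and macrophage markers (5.12 and 5.71 in the others) and 5.48 for neutrophil markers (3.49 and 3.5), so ranges over controls are wide for genes of those cells. RNA came from whole tissue, so a lower level cannot be divided into fewer cells of a type and less RNA per cell. The labels give no scan date or other batch.

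The targeted gene was low in both tissues. Axin1 read 4.36, 4.07 and 4.41 in the 3 tumours of mouse 121, 3.95 in the tumour of mouse 124, 4.58 in that of mouse 123 and 4.65 in that of mouse 81. The adjacent livers of the same mice, in that order, read 4.24, 4.38, 3.90 and 4.11. All 10 arrays lay below the controls, which read 5.07 to 5.48, and the tissues overlapped each other. Tumour minus adjacent liver was 0.04, -0.43, 0.69 and 0.54, a mean of 0.21 ± 0.51 (SD, n = 4) with an adjusted p of 0.704 in limma. Which part of the gene the probes cover is not given in the sources used here.

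Across all 23279 genes with 1 symbol, a gene was tested by limma's moderated test of the 4 within-mouse differences against 0, with Benjamini-Hochberg adjustment. At an adjusted p under 0.05, 0 genes passed (0% of those tested), also without moderation of the variances. At an unadjusted p under 0.05 there were 3145 genes, 1531 higher and 1614 lower in tumour. The smallest adjusted p was 0.0885 and was shared by 45 genes. An exact two-sided sign-flip test on 4 pairs cannot give a p below 0.125. The differences below are therefore described by their values, their direction in each mouse and their size, and none of them passed the test.

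Sign and size separated the genes further. The difference had the same sign in 4 of 4 mice for 5353 genes (23%), was 3 against 1 for 11027 (47.4%) and 2 against 2 for 6898 (29.6%). Tumour was higher in all 4 mice for 2320 genes (9.97%) and lower in all 4 for 3033 (13%). With each array centred on its median, that split was 1815 higher and 3956 lower, so the balance of small differences depends on the scaling. At least 2-fold higher in each mouse were 46 genes (0.198%), and at least 2-fold lower in each were 17 (0.073%). For 41 of the 46 the lowest of the 6 tumour arrays lay above the highest adjacent array, and for 11 of the 17 the reverse held. The lowest tumour also lay above all 3 controls for 38 of the 46, whereas the highest tumour lay below all 3 controls for 5 of the 17. These genes were chosen by their distance in each mouse, so separation of the tissues follows in part from that choice. The share of all genes with such separation was not counted. Without mouse 121, whose 3 tumours were averaged, the counts at 2-fold were 141 and 54 in the remaining 3 mice, without mouse 124 they were 85 and 35, and without mouse 81 they were 62 and 31.

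The mice differed in how far the tumour stood from its own liver. The median absolute difference over genes was 0.156 in mouse 121, 0.186 in mouse 124, 0.301 in mouse 123 and 0.257 in mouse 81. At least 2-fold higher in tumour were 232 genes in mouse 121, 441 in mouse 124, 1224 in mouse 123 and 1012 in mouse 81, and at least 2-fold lower were 159, 247, 876 and 849. The value of mouse 121 is a mean of 3 tumours that share 1 adjacent array. Taken singly, its unnumbered tumour gave 534 higher and 408 lower, tumour 2 gave 522 and 405, and tumour 3 gave 114 and 74. The mean difference of 18 immediate early genes, which respond to handling and stress of tissue, was -0.137 in mouse 121, 0.256 in mouse 124, 0.995 in mouse 123 and 0.904 in mouse 81. It was highest in the mice with the most genes apart, and its part in these counts was not tested.

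**Figure D1:**
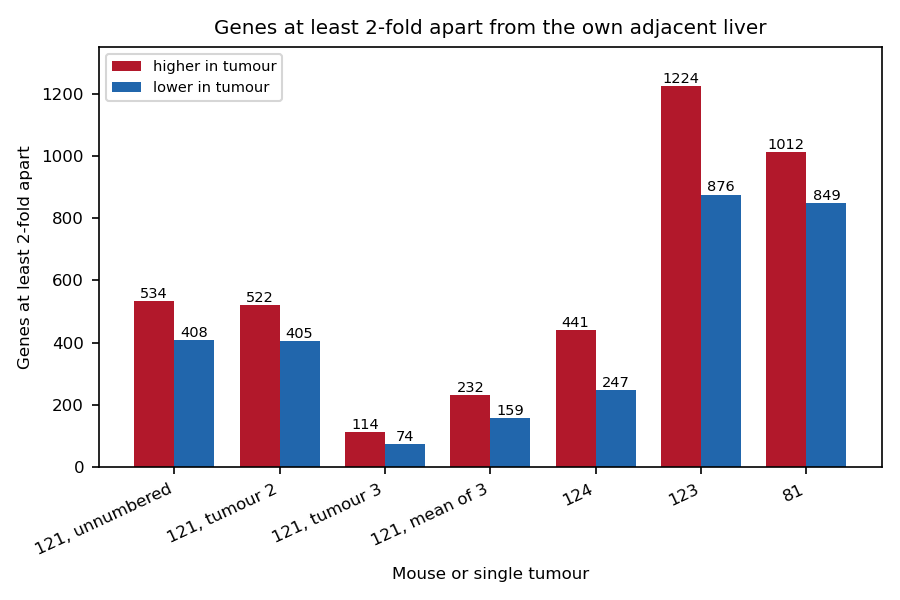
Number of genes (y axis) whose tumour level lay at least 2-fold above (red) or below (blue) that of the own adjacent liver, for the 3 single tumours of mouse 121, their mean, and the tumours of mice 124, 123 and 81 (x axis). The bars run from 74 genes lower in tumour 3 of mouse 121 to 1224 genes higher in mouse 123.

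In each direction 12 genes were taken by the largest value of their smallest difference, that is, by how far apart they were in the mouse where they were least apart. The 12 highest were Scd2, Ly6d, Cbr3, Nuf2, Ube2c, Mfge8, Cdkn3, Ccna2, Apela, Spink1, Tpx2 and Nrg1, of which Nuf2, Ube2c, Cdkn3, Ccna2 and Tpx2 act in cell division. The 12 lowest were Elovl3, Slc1a2, Sult2a8, Cyp4a14, Hamp2, Cyp4a32, Scnn1a, Mup21, Cyp2c38, Cyp4a10, Ces3b and Rspo3, most of which encode enzymes, transporters or secreted products of hepatocytes. These values chose the genes, so they are given as a description.

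**Figure D2:**
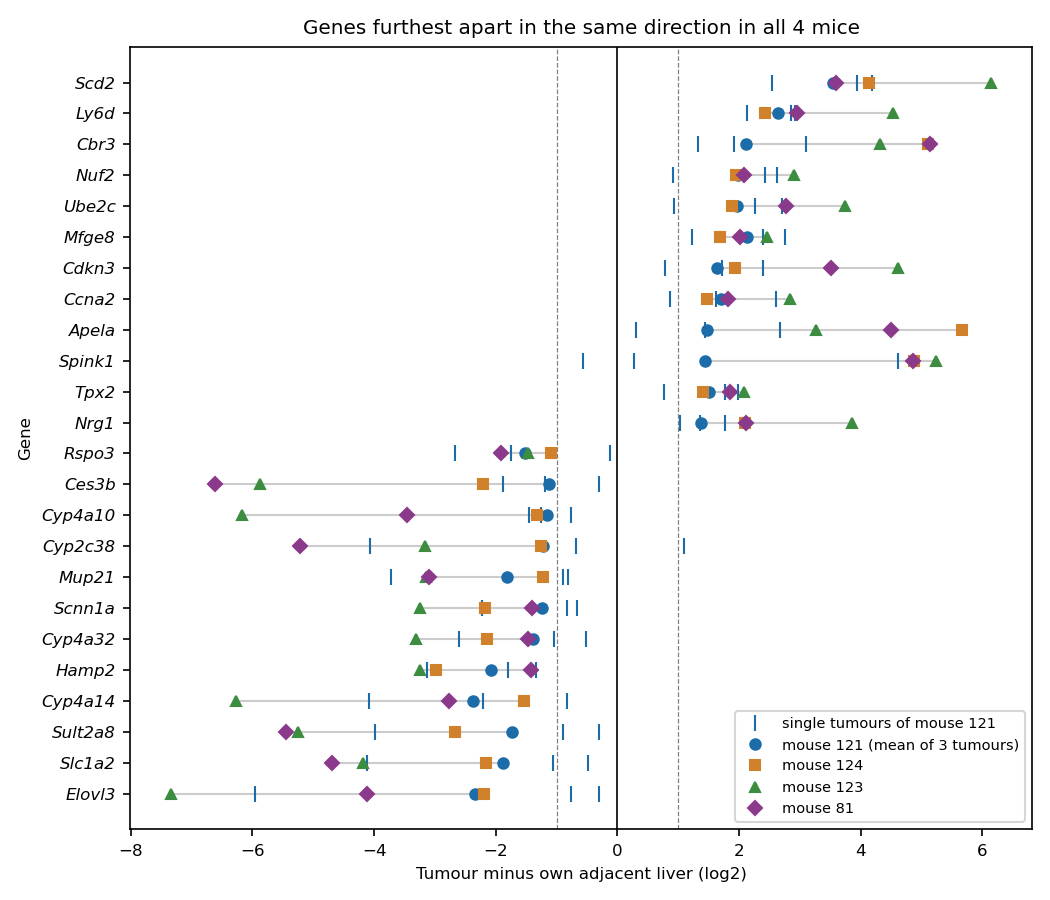
Tumour minus own adjacent liver on the log2 scale (x axis) for the 12 genes higher and the 12 genes lower in all 4 mice with the largest smallest difference (y axis). Filled symbols are mice, with the mean of 3 tumours for mouse 121, vertical ticks are the single tumours of mouse 121, and dashed lines mark 2-fold. Scd2 lies between 3.55 and 6.15 in the 4 mice, and Rspo3 between -1.92 and -1.09.

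Cell division gave the most uniform differences. All 29 measured genes of mitosis and the spindle were higher in tumour in all 4 mice, 13 of them at least 2-fold in each, with a median difference of 1.46 against -0.03 for all genes. The mean over these genes was 1.141 in mouse 121, 1.243 in mouse 124, 1.836 in mouse 123 and 1.556 in mouse 81. Within mouse 121 it was 1.701 in the unnumbered tumour, 1.264 in tumour 2 and 0.459 in tumour 3. Each tumour array had a higher mean level of the 29 genes (5.09 to 6.33) than each adjacent liver (4.04 to 4.63) and each control (3.97 to 4.7).

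Mki67, the proliferation marker Ki-67, read 6.96, 6.33 and 5.85 in the tumours of mouse 121, 6.60 in mouse 124, 6.62 in mouse 123 and 6.48 in mouse 81. Its adjacent livers read 5.26, 4.92, 4.35 and 4.79, so the tissues did not overlap, and only the highest control, at 5.71, came near the lowest tumour. The differences were 1.12, 1.68, 2.26 and 1.68. Nuf2, a subunit of the kinetochore complex that holds microtubules, was 1.99, 1.95, 2.90 and 2.09 higher in mice 121, 124, 123 and 81, a mean of 2.23 ± 0.45 (SD, n = 4; limma SE 0.19, adjusted p 0.0885). Tpx2, which activates Aurora A on the spindle, differed by 1.5, 1.42, 2.09 and 1.86. Its mean of 1.72 ± 0.31 (SD, n = 4) had the smallest SD of the 5 division genes named above, at a limma adjusted p of 0.0885. Ube2c, the ubiquitin-conjugating enzyme of the anaphase-promoting complex, read 8.56, 8.11 and 6.78 in the tumours of mouse 121, then 7.07, 8.32 and 7.49, against 5.85, 5.19, 4.57 and 4.72 in adjacent liver. Cdkn3, a phosphatase of cyclin-dependent kinases, was 1.63, 1.93, 4.61 and 3.52 higher, and Ccna2, cyclin A2, was 1.70, 1.48, 2.84 and 1.82 higher. Anln, the scaffold of the cleavage furrow, differed by 1.37, 1.61, 1.86 and 1.5, and Cdk1, the mitotic kinase, by 1.37, 1.63, 3.21 and 3.33. In none of these 8 genes did a tumour array overlap an adjacent array.

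Genes of DNA replication and nucleotide synthesis were higher by less. Of 24 measured, 19 were higher and 1 was lower in all 4 mice, none at least 2-fold in each, with a median difference of 0.53. Rrm2, the inducible subunit of ribonucleotide reductase, was 0.89, 1.75, 0.61 and 1.26 higher. Prim1, the primase subunit, was 0.63, 0.81, 0.83 and 1.07 higher. Mcm6, a subunit of the replicative helicase, differed by 0.45, 1.43, 1.95 and 2.26. The member with the opposite sign was Mcm10, a factor that starts replication, at -0.23, -0.76, -0.74 and -0.89, and the thymidine kinase gene Tk1 differed by -0.40, -0.31, -0.96 and 0.11.

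The promoters of these genes were read for 2 short elements known from cell cycle genes, the CCAAT box and TTTGAA, the letters of the cell cycle homology element, on both strands of the 300 bases from 250 before to 50 after each RefSeq start (GRCm38.p6). For comparison, 37.4% of the 32851 promoters in the table hold CCAAT, 17.9% hold TTTGAA and 6.95% hold both. A promoter was found for 24 of the 29 mitosis genes (26 promoters), of which 21 (80.8%) held CCAAT, 20 (76.9%) held TTTGAA and 18 held both. That count was added after the values were seen. Among the 12 genes with the largest smallest difference, 6 had a promoter in the table, and both elements stood together in those of Ube2c (chr2:164769679-164769978, plus strand) and Cdkn3 (chr14:46760291-46760590, plus strand). They are shown because they are the members of that group with both elements. Capitals mark CCAAT or its reverse complement ATTGG (6 in Ube2c, of which a pair overlaps, and 4 in Cdkn3) and TTTGAA or its reverse complement TTCAAA (1 in each).
Ube2c: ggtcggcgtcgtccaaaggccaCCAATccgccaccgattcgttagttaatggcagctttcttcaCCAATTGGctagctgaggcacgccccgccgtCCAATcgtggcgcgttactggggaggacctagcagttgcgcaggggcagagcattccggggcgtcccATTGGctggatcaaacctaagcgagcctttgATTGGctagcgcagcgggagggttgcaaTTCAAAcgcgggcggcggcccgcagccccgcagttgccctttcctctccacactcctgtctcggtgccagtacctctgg
Cdkn3: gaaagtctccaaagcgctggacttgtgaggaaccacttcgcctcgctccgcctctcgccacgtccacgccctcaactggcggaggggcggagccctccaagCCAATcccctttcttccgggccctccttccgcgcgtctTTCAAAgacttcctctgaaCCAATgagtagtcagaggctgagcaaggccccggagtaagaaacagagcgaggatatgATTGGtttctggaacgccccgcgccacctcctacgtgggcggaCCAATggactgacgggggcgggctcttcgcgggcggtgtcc
A match gives the letters only and was not tied to any factor. The core of the antioxidant response element, TGACNNNGC, was found in 0 of the 6 promoters, against 12.4% of the table. For 7 of the 12 lowest genes 8 promoters were found, and 1 of the 8, that of Mup21, held it.

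Wnt targets and pericentral genes were mostly lower in tumour than in adjacent liver. Of 19 measured, 0 were higher and 10 were lower in all 4 mice, with a median difference of -0.51, and Glul and Slc1a2 were at least 2-fold lower in each. The mean over the 19 genes was -0.471, -0.517, -0.568 and -1.306 in mice 121, 124, 123 and 81. Within mouse 121 it was -0.935 in the unnumbered tumour, -0.313 in tumour 2 and -0.165 in tumour 3. The mean level of these genes was 6.25 to 7.3 in tumours, 7.34 to 7.63 in adjacent livers and 7.29 to 7.57 in controls, so the adjacent livers lay near the controls.

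Glul, glutamine synthetase, read 9.51, 9.90 and 10.79 in the tumours of mouse 121, 9.93 in mouse 124, 8.65 in mouse 123 and 7.98 in mouse 81, against 11.09, 11.16, 11.23 and 11.55 in adjacent liver. No tumour reached an adjacent liver, and tumour 3 of mouse 121 lay within the controls (10.42 to 11.32). The differences were -1.03, -1.23, -2.59 and -3.57, a mean of -2.10 ± 1.20 (SD, n = 4; limma adjusted p 0.152). Slc1a2, the glutamate transporter of the same pericentral cells, was lower by more, at -1.88, -2.17, -4.19 and -4.70. Axin2, a feedback inhibitor that beta-catenin induces, read 4.65 to 5.17 in tumours and 5.25 to 5.62 in adjacent livers, without overlap, and differed by -0.33, -0.45, -0.78 and -0.39. Lgr5, the R-spondin receptor, read 3.36 to 4.64 in tumours and 4.80 to 5.30 in adjacent livers and differed by -0.62, -1.15, -0.48 and -1.56. Tbx3, a transcription factor of pericentral hepatocytes, differed by -0.41, -0.80, -0.83 and -1.12, with overlap between the tissues. Cyp2e1, the ethanol-inducible cytochrome P450, was -0.69, -0.26, -2.67 and -3.75.

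Other members did not share a direction. Ccnd1, cyclin D1, differed by 0.32, 0.54, 2.05 and -0.40, and Lef1, a transcriptional partner of beta-catenin, by -0.15, 0.01, 0.06 and -0.17. Cyp1a2 was 1.04 higher in mouse 124 and 2.70 lower in mouse 81 (-2.70). Lect2 was -2.46 in mouse 81 and between -0.11 and 0.52 in the others. Among 13 genes of the destruction complex, Gsk3b, which phosphorylates beta-catenin, was the member higher in all 4 mice, at 0.29, 0.25, 0.33 and 0.34. Axin2 and Amer1 were lower in all 4. These counts lay near the shares over all genes, 9.97% higher and 13% lower in all 4 mice. The SD of Gsk3b over mice was 0.04, and its lowest tumour (8.44) lay above its highest adjacent liver (8.34). Its limma adjusted p was 0.347.

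A secreted amplifier of Wnt signalling was lower as well. Rspo3, R-spondin 3, which endothelium of the central vein makes, read 3.55, 4.46 and 6.10 in the tumours of mouse 121 and 5.13, 4.44 and 3.42 in mice 124, 123 and 81. The adjacent livers read 6.22, 6.22, 5.91 and 5.34, and controls 5.72 to 6.42. The differences, -1.51, -1.09, -1.46 and -1.92, were the closest to each other among the 12 lowest genes, with a mean of -1.5 ± 0.34 (SD, n = 4; limma SE 0.16, adjusted p 0.0885). Tumour 3 of mouse 121 was the array that overlapped adjacent liver, and the 3 tumours averaged for that mouse spanned 2.55. Wnt2, a sinusoidal Wnt ligand, differed by -0.35, -0.27, -0.04 and -0.67 and was not lower in all 4 mice after quantile normalization. Periportal genes, which mark the opposite zone, had 3 of 13 members higher and 2 lower in all 4 mice, with a median difference of -0.24. Of these, Pck1, of glucose synthesis, was -0.60, -0.98, -1.49 and -0.23, and the adhesion gene Cdh1 was 0.61, 2.06, 4.31 and 1.46.

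**Figure D3:**
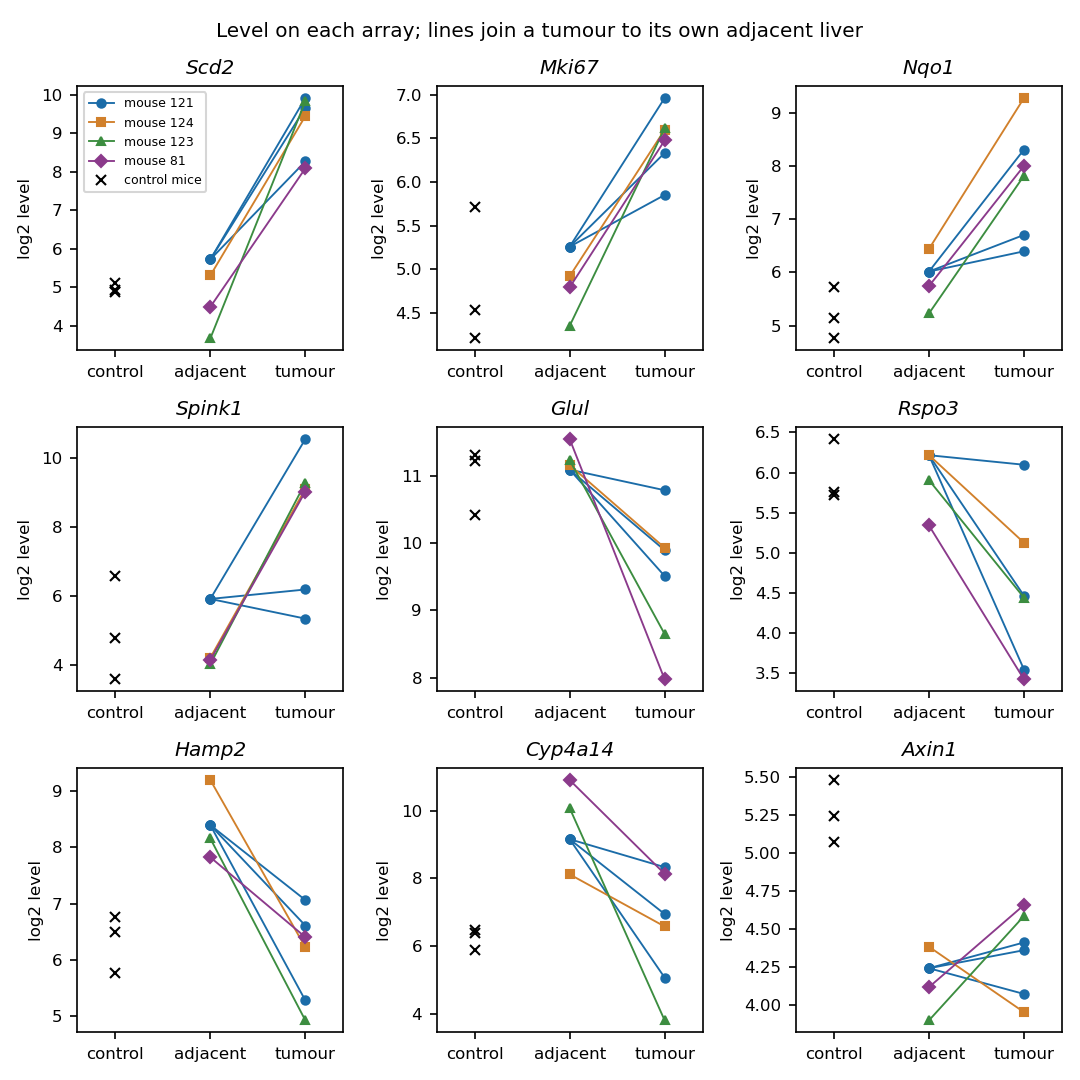
Log2 level (y axis) of 9 genes on the 3 control arrays (crosses), the 4 adjacent livers and the 6 tumours (x axis), with a line from each adjacent liver to each tumour of the same mouse, on a scale of its own for each gene. Lines for Scd2, Mki67 and Nqo1 run up in every tumour and those for Glul and Hamp2 run down in every tumour, while Spink1 is split within mouse 121 and Axin1 within and between mice.

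Genes of fetal liver and liver tumours were higher in part. Of 25 measured, 13 were higher and 1 was lower in all 4 mice, with a median difference of 1.45. The mice were unequal, with medians over these genes of 0.537 in mouse 121, 0.239 in mouse 124, 2.393 in mouse 123 and 1.512 in mouse 81. Scd2 and Spink1 were at least 2-fold higher in each mouse. Scd2, a fatty acid desaturase of the newborn liver, read 9.66, 9.91 and 8.27 in the tumours of mouse 121 and 9.44, 9.83 and 8.09 in mice 124, 123 and 81. The adjacent livers read 5.73, 5.31, 3.68 and 4.5 and the controls 4.89 to 5.12, so every tumour lay far above both. The differences of 3.55, 4.13, 6.15 and 3.59 gave a mean of 4.36 ± 1.22 (SD, n = 4; limma SE 0.43, adjusted p 0.0885), or 20.5-fold. Spink1, a secreted trypsin inhibitor, depended on the tumour. It read 10.54 in the unnumbered tumour of mouse 121, 5.34 in tumour 2 and 6.19 in tumour 3, beside 5.91 in that mouse's adjacent liver, and 9.10, 9.27 and 9.02 in the other tumours, beside 4.21, 4.03 and 4.15. Without mouse 121 its mean difference was 5.0 at a limma adjusted p of 0.00515, against 0.112 in all 4 mice. Mouse 121 had the smallest difference of the 4, so leaving it out narrows the spread.

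Other oncofetal genes differed in size between mice. Gpc3, the glypican used as a marker of human liver cancer, was 7.44 higher in mouse 123 and 0.68, 0.49 and 0.02 higher in mice 121, 124 and 81, a last value whose sign turns with median centring. Afp, alpha-fetoprotein, was 3.92 higher in mouse 123 and 1.10, 0.44 and 1.14 higher in the others. H19, an imprinted fetal RNA, was 5.35 and 5.46 higher in mice 123 and 81, 1.10 higher in mouse 121 and -0.52 in mouse 124. Igf2, the growth factor next to H19, was also higher in mice 123 and 81, by 2.75 and 1.80, than in mice 121 and 124, at 0.29 and -0.15. Dlk1 was near the lowest levels of the array everywhere (2.98 to 3.44) and differed by at most 0.19, so its place among the 13 rests on small values.

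Several of the 12 highest genes have no list of their own. Ly6d, a surface protein anchored by a lipid, read 10.33 to 11.24 in the 6 tumours, 6.39 to 8.32 in adjacent livers and 4.99 to 7.52 in controls, and its differences were 2.64, 2.42, 4.54 and 2.95. Mfge8, a secreted protein that bridges dying cells to phagocytes, read 8.69, 9.06 and 7.52 in the tumours of mouse 121 and 7.69, 8.10 and 7.53 in the others, against 6.29, 6.0, 5.63 and 5.51. Its differences of 2.13, 1.69, 2.47 and 2.02 gave a mean of 2.08 ± 0.32 (SD, n = 4; limma SE 0.16, adjusted p 0.0885). Nrg1, neuregulin 1, a ligand of ErbB receptors, read 6.48 to 7.21 in tumours and 2.79 to 5.45 in adjacent livers and differed by 1.38, 2.10, 3.86 and 2.12. Apela, a peptide ligand of the apelin receptor, was near 3 in all adjacent livers (2.80 to 3.21) and controls (2.82 to 3.12). In tumours it read 4.34, 5.58 and 3.21 in mouse 121 and 8.48, 6.32 and 7.71 in mice 124, 123 and 81. Of the 46 genes, 8 were at least 2-fold higher in each of the 6 tumours taken singly: Casp12, Cbr3, Gipc2, Ly6d, Mfge8, Nrg1, Scd2 and Wfdc3. Casp12, a caspase of the endoplasmic reticulum, differed by 1.35, 2.58, 2.44 and 1.87, and Gipc2, a scaffold protein with a PDZ domain, by 3.23, 5.33, 1.24 and 3.65.

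Targets of NRF2, the transcription factor of the oxidative stress response, and genes of glutathione were higher in 15 of 21 members in all 4 mice and lower in 0, with a median difference of 0.74. The mean difference was 0.406 in mouse 121, 2.123 in mouse 124, 1.24 in mouse 123 and 1.371 in mouse 81, and 0.275 to 0.598 in the single tumours of mouse 121. Cbr3, a carbonyl reductase, read 6.05, 7.24 and 5.46 in the tumours of mouse 121 and 9.62, 7.43 and 8.58 in the others, beside 4.14, 4.51, 3.11 and 3.44 in adjacent liver and 3.76 to 3.94 in controls. The differences were 2.11, 5.11, 4.32 and 5.14, a mean of 4.17 ± 1.42 (SD, n = 4; limma adjusted p 0.0885). Without mouse 121 the mean was 4.86 at a limma adjusted p of 0.0112, and Cbr3 and Spink1 were the 2 genes that passed in those 3 mice. Mouse 121 had the smallest difference for both genes, so leaving it out narrows their spread. Nqo1, a quinone reductase, differed by 1.12, 2.84, 2.59 and 2.26. Its tumours 1 by 1 read 6.70, 8.31 and 6.40 in mouse 121 and 9.27, 7.82 and 8.0 in the others.

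Mouse 121 differed from the other mice in the cystine transporter of this group. Slc7a11 read 3.42, 2.67 and 4.29 in the 3 tumours of mouse 121 and 10.50, 8.25 and 9.14 in those of mice 124, 123 and 81, whereas all adjacent livers lay between 2.80 and 3.21 and controls between 2.73 and 2.80. The differences were 0.59, 7.70, 5.20 and 5.93. Abcc4, an efflux pump of bile acids and drugs, was likewise lowest in mouse 121 and highest in mouse 124, at 0.70, 5.52, 3.67 and 3.60. Gclc, which begins glutathione synthesis, differed by -0.29, 1.90, 0.39 and 1.03. The test of a difference between mice has 1 value per mouse and was not made.

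Stress, folding and sugar metabolism genes lay closer to the adjacent level. Of 18 p53 targets, 9 were higher and 1 was lower in all 4 mice (median 0.42). Among them Cdkn1a, the p21 inhibitor of the cell cycle, differed by 0.39, 0.54, 1.67 and 1.71, and its controls spread from 6.54 to 8.80. Tnfrsf10b, a death receptor, differed by 1.05, 0.97, 2.08 and 1.23, and Plk2, a polo-like kinase, by 0.63, 0.70, 0.65 and 1.75. Of 22 genes of folding in the endoplasmic reticulum, 7 were higher and 0 lower in all 4 mice (median 0.22), and the mean was 0.873 in mouse 123 against 0.062 to 0.139 in the others. Fkbp11, a folding enzyme, differed by 1.40, 0.75, 3.65 and 0.96. Of 22 genes of glycolysis and hypoxia, 4 were higher and 1 lower in all 4 mice (median 0.17). The mean over that list was 0.99 in mouse 81 and 0.03 to 0.389 in the others. Pygb, the brain form of glycogen phosphorylase, was at least 2-fold higher in each mouse, at 1.12, 1.49, 2.80 and 2.40. Ndrg1 and the glucose transporter Slc2a1 were highest in mouse 81, at 3.22 and 2.58.

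For some of the genes lowest in tumour the adjacent liver lay above the controls. Hamp2, a hepcidin-like peptide, read 5.27, 6.61 and 7.06 in the tumours of mouse 121 and 6.22, 4.92 and 6.40 in the others. Its adjacent livers read 8.40, 9.20, 8.16 and 7.83, above every control (5.77 to 6.77), while the tumours spread around the controls. The differences were -2.08, -2.98, -3.24 and -1.42, a mean of -2.43 ± 0.84 (SD, n = 4; limma adjusted p 0.0885), and Hamp2 was the gene at least 2-fold lower in each of the 6 tumours. Cyp4a14, a fatty acid omega-hydroxylase that PPARalpha induces, had the same arrangement: adjacent livers at 9.16, 8.12, 10.08 and 10.90, controls at 5.89 to 6.48, and tumours at 5.07, 6.95 and 8.33 in mouse 121 and 6.58, 3.80 and 8.13 in the others. The adjacent livers of Cyp4a32 (6.17 to 6.90) also lay above the controls (5.37 to 5.55). For these genes the tumour was lower than an adjacent liver that itself lay above the controls.

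Some of the others lay below the controls too, and some overlapped them. Slc1a2, Scnn1a, a subunit of the epithelial sodium channel, Ces3b, a carboxylesterase, Cmah, an enzyme of sialic acid synthesis, and Cyp2c23 were the 5 genes whose 6 tumours all read below the 3 controls. Ces3b read 7.05, 7.74, 8.63, 7.50, 4.03 and 3.25 in the tumours, in the order of mouse 121 (3 tumours), 124, 123 and 81, against 8.93 to 9.91 in adjacent livers and 8.89 to 10.09 in controls. Scnn1a differed by -1.24, -2.18, -3.24 and -1.40. Sult2a8, a liver sulfotransferase, read 5.10, 8.79 and 8.20 in the tumours of mouse 121 and 7.36, 4.88 and 4.24 in the others, against 9.09 to 10.12 in adjacent livers. Its controls read 8.74 to 9.98, so tumour 2 of mouse 121 lay within them. Elovl3, an elongase of very long fatty acids, read 4.33 in the unnumbered tumour of mouse 121 and 9.99 and 9.53 in its tumours 2 and 3, beside 10.29 in the adjacent liver. In mice 124, 123 and 81 it read 8.27, 3.22 and 4.35, beside 10.46, 10.55 and 8.48. It read 9.01 to 10.39 in controls, a range that holds tumours 2 and 3 of mouse 121. Its mean difference of -4.00 ± 2.39 (SD, n = 4; limma adjusted p 0.157) therefore joins tumours near the adjacent level with tumours far below it.

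Sex-biased liver genes were unequal. Of 20 male-biased genes, 13 were lower and 2 were higher in all 4 mice, with a median difference of -1.28. The mean was -0.599, -0.822, -2.336 and -1.704 in mice 121, 124, 123 and 81, and -1.351, -0.157 and -0.289 in the 3 tumours of mouse 121. Mup21 and Mup3, major urinary proteins, differed by -1.81, -1.22, -3.15 and -3.09, and by -1.02, -0.91, -2.98 and -2.05. Egfr, the receptor of epidermal growth factor, was -0.54, -1.18, -0.20 and -0.53. Hsd3b5, a steroid enzyme, read 2.24 to 4.02 in tumours and 8.22, 8.03 and 6.48 in adjacent livers of mice 124, 123 and 81, but 3.20 in that of mouse 121, and controls ran from 3.31 to 8.48. Of 20 female-biased genes, 2 were higher and 0 lower in all 4 mice (median 0.09). Cyp2a4, a steroid hydroxylase and the member at least 2-fold higher in each mouse, read 10.95, 10.34 and 5.95 in the tumours of mouse 121 and 11.64, 11.07 and 10.89 in the others, against 6.40, 7.15, 9.34 and 9.70.

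Genes of bile acid and drug metabolism were lower in part, and those of amino acid and fatty acid breakdown lay nearer to the background of 13% of all genes lower in all 4 mice. Of 23 bile acid genes, 9 were lower and 2 higher in all 4 mice, with a median difference of -0.91. Slc10a1, which takes up bile acids from the blood, read 6.89 to 10.01 in tumours and 10.13 to 10.92 in adjacent livers, without overlap, and differed by -0.62, -0.93, -4.00 and -3.07. Slco1a1, an organic anion transporter, differed by -0.83, -2.06, -7.40 and -3.77. Cyp7a1, the rate-limiting enzyme of bile acid synthesis, was not of a kind: 0.73, -1.09, -4.40 and -0.95. Of 28 cytochrome P450 genes of families 2 and 3, 11 were lower and 1 was higher in all 4 mice (median -0.57), and the mean was 0.179, -0.023, -1.196 and -2.214. Of 25 genes of the urea cycle and amino acid breakdown, 5 were lower and 0 higher in all 4 mice (median -0.40), with means of -0.465, -0.52 and -1.043 in mice 121, 124 and 123 and 0.309 in mouse 81. Prodh, proline dehydrogenase, differed by -1.21, -0.94, -3.73 and -1.24. Of 22 PPARalpha targets, 4 were lower and 0 higher in all 4 mice (median -0.28).

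Hepatocyte transcription factors and acute phase genes had more members lower than higher in all 4 mice, while secreted hepatocyte proteins lay close to the adjacent level. Of 18 hepatocyte transcription factors, 6 were lower and 0 higher in all 4 mice (median -0.35). Cebpa, a factor of mature hepatocytes, differed by -0.35, -0.21, -0.92 and -0.89, and Nr1h4, the bile acid receptor FXR, by -0.14, -0.40, -2.01 and -1.58. Hnf4a, the central regulator of hepatocyte genes, differed by 0.11, -0.40, 0.13 and -0.50. Of 24 secreted hepatocyte proteins, 5 were lower and 1 was higher in all 4 mice (median -0.07), where 13% of all genes were lower. The number lower was 8 with median centring and 3 with quantile normalization, so it depends on the scaling. Of 26 acute phase and complement genes, 10 were lower and 1, Lcn2, was higher (median -0.45). Lcn2, an iron-binding protein of inflamed tissue, was 1.38, 1.35, 2.39 and 0.89 higher, and controls ran from 6.76 to 11.89.

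Lipid synthesis divided the mice. The mean difference of 19 genes of cholesterol synthesis and uptake was 0.752 in mouse 121, 0.965 in mouse 124, 0.122 in mouse 123 and -0.732 in mouse 81, with 2 members higher and 0 lower in all 4 mice (median 0.36). In the 3 tumours of mouse 121 the mean was 1.051, 0.588 and 0.617. Hmgcs1, an early enzyme of the pathway, differed by 1.11, 1.72, -0.13 and -0.81, and Sqle, squalene epoxidase, by 1.73, 2.06, 1.04 and -0.01. Dhcr7, the last enzyme, was higher in all at 0.86, 0.91, 0.68 and 0.98. Fatty acid synthesis and desaturation had 4 of 25 members higher and 5 lower in all 4 mice (median -0.20), and it was lowest in the same mouse 81 (-0.734, against -0.017 to 0.328).

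**Figure D4:**
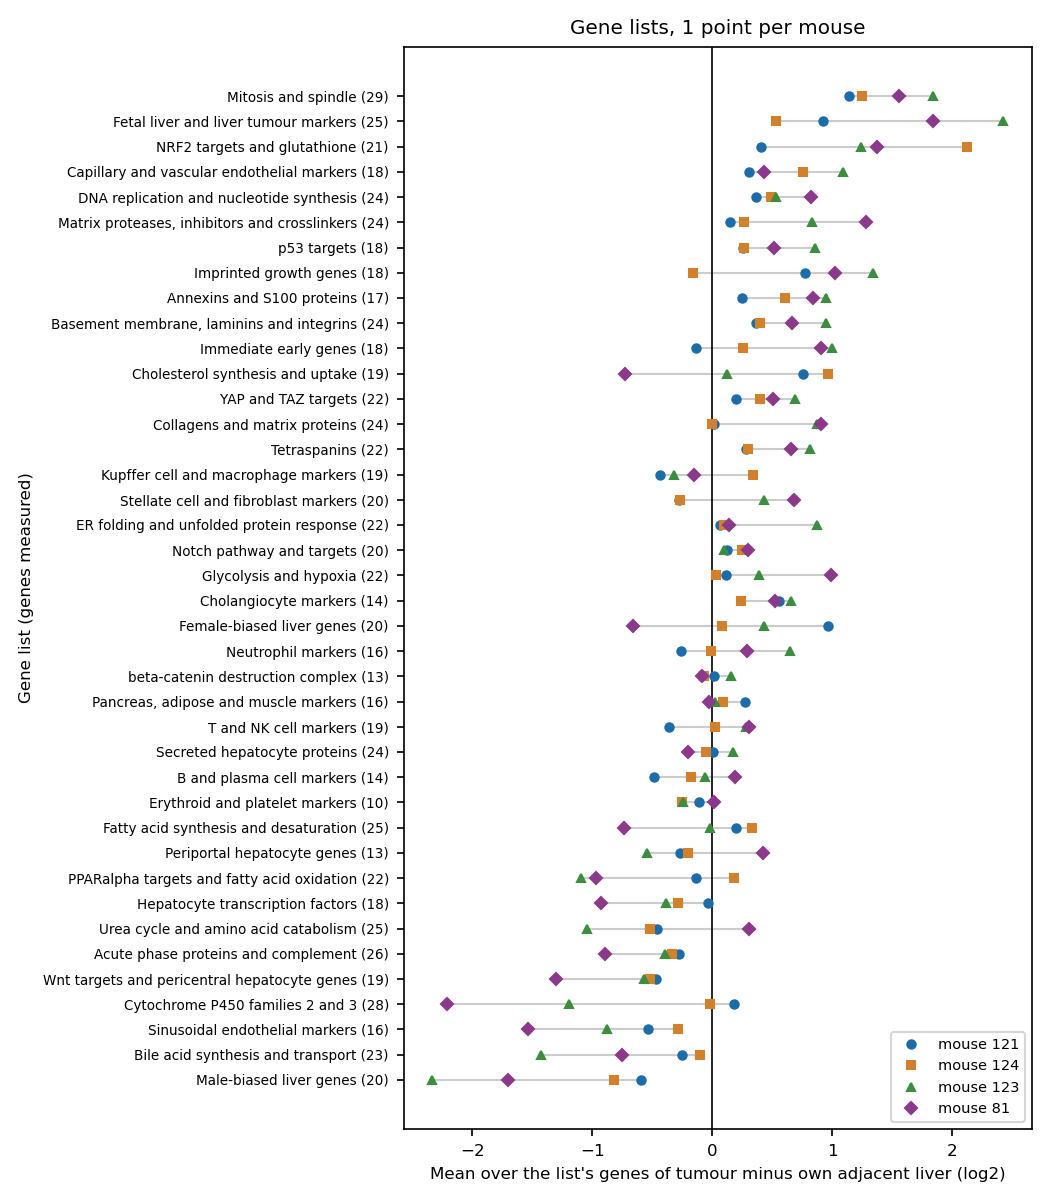
Mean over a list's genes of tumour minus own adjacent liver (x axis, log2) for the 40 gene lists (y axis, number measured in parentheses), 1 symbol per mouse, in order of the median over genes. Mitosis and spindle genes lie between 1.141 and 1.836 and male-biased genes between -2.336 and -0.599, while cholesterol synthesis runs from -0.732 to 0.965.

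Markers of the liver's vessels separated by type. Of 16 markers of sinusoidal endothelium, 12 were lower and 0 higher in all 4 mice, with a median difference of -0.72, and 1 lay under the median of all values on all 10 arrays. Their mean level was 5.21 to 6.57 in tumours, 6.46 to 6.75 in adjacent livers and 6.46 to 6.78 in controls. The mean difference was -0.536, -0.289, -0.881 and -1.54, and in mouse 121 it was -1.344 in the unnumbered tumour, -0.106 in tumour 2 and -0.159 in tumour 3. Clec4g, a lectin of sinusoidal cells, differed by -1.20, -0.88, -2.98 and -4.58, and Dnase1l3, a secreted nuclease, by -1.26, -0.74, -2.35 and -1.96. Stab2, a scavenger receptor, differed by -0.54, -0.52, -1.37 and -2.89. Of 18 markers of capillary and other vascular endothelium, 10 were higher and 2, Tek and Eng, were lower (median 0.57). Emcn, endomucin, read 7.27, 5.76 and 6.32 in the tumours of mouse 121 and 7.68, 7.84 and 6.57 in the others, against 4.84 to 5.51 in adjacent livers and 5.22 to 5.32 in controls. Its differences were 1.33, 2.17, 2.74 and 1.73, and those of Cd34, a surface marker of capillary endothelium, 0.95, 1.77, 2.59 and 1.75. Cav1, the coat protein of caveolae, was 1.23, 1.79, 1.79 and 2.08 higher. Bmp2, a signal from sinusoidal endothelium, differed by -0.83, -0.77, -1.66 and -1.5. The part of these marker levels in the lower Rspo3 and Wnt2 was not tested.

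Stellate cell markers did not share a direction, while matrix genes had more members higher than lower in all 4 mice. Of 20 stellate cell and fibroblast markers, 7 were higher and 4 were lower in all 4 mice (median 0.23), and the mean was -0.275, -0.268, 0.429 and 0.678. The 4 lower ones were Lrat, Hgf, Pdgfra and Dcn, of which Lrat stores vitamin A in resting stellate cells. Hgf, hepatocyte growth factor, read 4.84, 5.74 and 6.79 in the tumours of mouse 121 and 5.21, 4.99 and 4.37 in the others, beside 6.89, 6.27, 5.90 and 5.63 in adjacent liver and 5.98 to 6.13 in controls. The differences, -1.10, -1.06, -0.90 and -1.26, were nearly equal, with an SD of 0.15. That of mouse 121 averages 3 tumours that spanned 1.96, so the SD leaves out this spread. The 7 higher ones were Pdgfrb, Tagln, Vim, Col1a1, Col1a2, Col3a1 and Thy1. Col1a1, of fibrillar collagen, was 0.76, 0.24, 1.81 and 2.30 higher. Of 24 basement membrane, laminin and integrin genes, 13 were higher and 1 was lower in all 4 mice (median 0.39), and Itga6 and Nid1 were at least 2-fold higher in each. Itga6, a laminin receptor subunit, read 7.25, 4.19, 4.96, 6.28, 7.65 and 5.65 in tumours against 3.67 to 4.18 in adjacent livers, and Nid1, nidogen 1, differed by 1.32, 2.17, 4.08 and 1.26. Collagen and matrix genes had 8 of 24 members higher and 2 lower in all 4 mice (median 0.28). Among the 8, Sparc, a matrix-binding glycoprotein, differed by 0.74, 0.99, 2.39 and 2.33. Of 24 matrix proteases, inhibitors and crosslinkers, 8 were higher and 0 were lower (median 0.47).

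Immune, bile duct and blood markers were mixed. Of 19 Kupffer cell and macrophage markers, 4 were higher and 3 were lower in all 4 mice (median 0.23). Clec4f, which defines Kupffer cells, differed by -1.76, 0.13, -2.77 and -3.29, while Trem2, of lipid-associated macrophages, differed by 0.29, 0.33, 0.44 and 0.73. T and NK cell markers had 1 of 19 higher and 1 lower (median 0.00), B and plasma cell markers 0 and 1 of 14 (median -0.12), and neutrophil markers 0 and 1 of 16 (median 0.08), with 11 of the 16 under the median of all values on all 10 arrays. Erythroid and platelet markers had 1 of 10 higher and 5 lower (median -0.18), and markers of pancreas, fat and muscle had 1 of 16 higher and 1 lower (median 0.03). Of 14 bile duct markers, 2 were higher and 1 was lower in all 4 mice (median 0.13, and 1.10 among those kept by a filter on low values). Krt19, a bile duct keratin, differed by 0.25, -0.62, -0.23 and 1.14.

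Signalling and surface families had more members higher than lower, where 9.97% of all genes were higher and 13% lower in all 4 mice. With median centring, the members higher numbered 5 for Notch, 6 for YAP and TAZ, 7 for annexins and S100 proteins and 5 for tetraspanins. In the Notch pathway 6 of 20 were higher and 0 lower in all 4 mice (median 0.17), and the ligand Jag1 differed by 0.06, 0.16, 0.37 and 0.34. Of 22 targets of YAP and TAZ, the coactivators that the Hippo pathway restrains, 8 were higher and 2 were lower (median 0.33). Igfbp3, which binds insulin-like growth factors, read 9.44, 7.21 and 8.66 in the tumours of mouse 121 and 8.75, 10.45 and 9.73 in the others, and differed by 0.86, 1.25, 4.21 and 3.70. Of 17 annexins and S100 proteins, 7 were higher and 1 was lower (median 0.41). Anxa2, which binds membranes with calcium, read 8.95 to 10.25 in tumours and 6.03 to 8.54 in adjacent livers, without overlap, and differed by 0.91, 1.97, 4.22 and 3.21. Of 22 tetraspanins, 7 were higher and 1 was lower (median 0.26), and Tspan8 was 2.82, 0.97, 6.69 and 0.75 higher.

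Imprinted growth genes divided mouse 124 from the others. Of 18 measured, 6 were higher and 1 was lower in all 4 mice (median 0.41), and the mean was 0.774, -0.163, 1.34 and 1.023 in mice 121, 124, 123 and 81. Meg3, a long RNA of the imprinted Dlk1 locus, read 7.76, 10.81 and 9.42 in the tumours of mouse 121, 9.93 in mouse 123 and 8.97 in mouse 81, but 5.68 in mouse 124. The adjacent liver of mouse 124 was the highest of the 4, at 7.72, against 5.71, 5.03 and 5.20. The differences were 3.62, -2.05, 4.89 and 3.77. Rian, from the same locus, differed by 4.39, -1.86, 4.80 and 4.07, and Mirg, also there, by 1.80, -0.62, 2.12 and 0.96, so all 3 were negative in mouse 124 and highest in mouse 123. These 3 RNAs are neighbours and do not count as separate results. Without mouse 124 the mean of Rian was 4.42 at a limma adjusted p of 0.0276, and it was the only gene that passed in those 3 mice. Mouse 124 is the one with the opposite sign, so leaving it out narrows the spread. In all 4 mice the limma adjusted p of Rian was 0.338.

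Opposite differences of at least 2-fold in different mice were found for 136 genes, and the 8 with the widest range are Rgs16, Wfdc15b, Meg3, Etnppl, Rian, Slc22a27, Cyp2f2 and Gpnmb. Rgs16, a regulator of G proteins, was 2.51 higher in mouse 123 and -4.84 in mouse 81, where the adjacent liver had the highest level of the 13 arrays (10.80). Cyp2f2, a periportal P450, read 4.95 and 5.29 in the tumours of mice 123 and 81 and 9.86 to 11.57 in the other 4 tumours. Etnppl, an enzyme that breaks down phosphoethanolamine, was 4.05 higher in mouse 81 and -2.83 in mouse 123. Gpnmb, a glycoprotein of macrophages and other cells, was 3.43 and 4.91 higher in mice 123 and 81 and -1.04 in mouse 124. Slc22a27, an organic anion carrier, was 2.47 higher in mouse 121 and -3.95 in mouse 81.

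**Figure D5:**
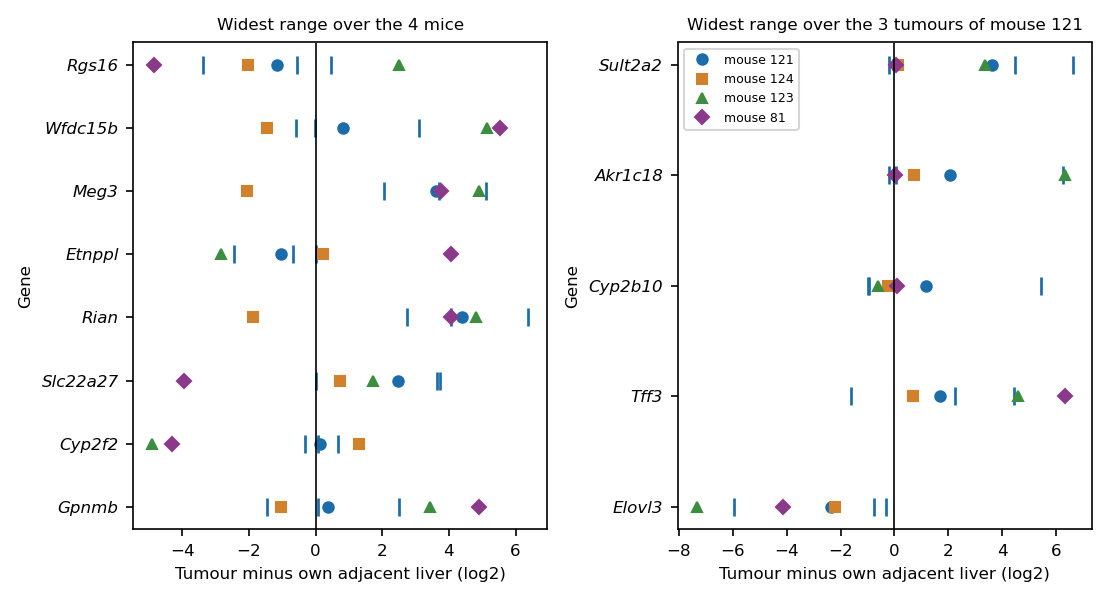
Tumour minus own adjacent liver (x axis, log2) for the 8 genes with the widest range over mice among those at least 2-fold apart in opposite directions (left) and the 5 genes with the widest range over the 3 tumours of mouse 121 (right). Symbols are mice and vertical ticks are the single tumours of mouse 121; Rian is at -1.86 in mouse 124 and between 4.07 and 4.80 in the others.

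The 3 tumours of mouse 121 had a somewhat lower median SD than single tumours of different mice. The former is an SD over 3 values and the latter over 4, which are not directly comparable, and the gap was not tested. The median SD over all genes was 0.183 for these 3 tumours, 0.207 for 1 tumour from each mouse (the unnumbered tumour of mouse 121), 0.192 with the mean of 3 tumours for mouse 121, 0.190 for the 4 adjacent livers and 0.200 for the 3 controls. For the 11808 genes above the median of all values it was 0.216, 0.261, 0.249, 0.183 and 0.214. The 95th percentile of the SD over all genes was 0.578 for the 3 tumours of mouse 121 and 0.728 for 1 tumour from each mouse. The 4 tumour values varied more than the 4 adjacent livers for 51.2% of all genes and for 65% of those above the median. Cyp2b10, a drug-inducible P450, read 10.50 in tumour 2 of mouse 121 and 3.65 to 5.06 on the other 9 arrays. Akr1c18, a steroid reductase, read 9.50 in the unnumbered tumour of mouse 121 and 9.91 in mouse 123, and 3.05 to 3.80 on the other 8. Sult2a2, a sulfotransferase, read 7.02 and 9.16 in the unnumbered tumour and tumour 2 and 2.32 in tumour 3. Tff3, a secreted trefoil peptide, read 10.39, 4.34 and 8.20. Tumours of 1 animal thus carried different values of such genes, and an average over them hides this.

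The within-mouse subtraction removed little of the spread. The median SD of the 4 differences was 0.276, against 0.300 for the root of the summed variances of tumour and adjacent values without pairing, and the former was the smaller in 54.4% of genes. Differences of 2 mice correlated across genes at r = 0.229 (mice 121 and 81) to 0.492 (mice 123 and 81); genes are not independent replicates, and r is given as a description. Without the pairing, that is, with no block for the mouse, limma called 104 genes (93 higher, 11 lower) at an adjusted p under 0.05, all of which had the same sign in 4 of 4 mice. Of them 32 were among the 46 genes and 4 among the 17.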

How the data were processed

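RNA of whole liver or tumour tissue was amplified to single-stranded cDNA, labelled with biotin and hybridised to one-colour arrays, per the labels' protocols. The deposited log2 values were made by the authors with RMA and Partek, per the submitters' processing notes, which give no versions. RMA adjusts background and equalises array distributions, so global shifts between tissues are removed and differences of dim probe sets are compressed. Chip model and probe set definition: not given in the sources used here. Precision is limited by the number of arrays.

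Of 24479 probe sets, 23281 had 1 symbol, 0 had several and 1198 had none and were not tested as genes. Of 2 symbols with 2 probe sets the brighter was kept, which left 23279 genes. Samples were grouped and paired by the mouse number in their titles, which marks the same animal. Deviations from the group means correlated across genes at 0.0251 to 0.132 within mice and -0.144 to 0.0914 between mice. The 4 within-mouse differences were tested against 0 with limma 3.58.1 under R 4.3.3 (lmFit, then eBayes with trend), with Benjamini-Hochberg adjustment. The fit was tested on simulated data.

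The members, the 40 gene lists (867 entries, 807 measured, 755 distinct genes) and the rule for named genes were chosen with earlier results of these data known. The rule takes the 12 genes per direction described in the text, Axin1, Glul, Axin2, Lgr5 and Tbx3, up to 4 members of each list by the smallest difference, the 8 genes with the widest range over mice and the 5 with the widest range over the tumours of mouse 121. Predicted and clone-named genes, small RNAs and receptor families were left out. Genes named outside the rule (such as Slc7a11, Gpc3, H19, Ccnd1, Mki67, Slc10a1, Clec4f and Cav1) were chosen after their values were seen. Promoter sequences are from RefSeq (GRCm38.p6), matched by symbol.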

Additional observations from a re-analysis of the deposited data

Results flagged for a closer look

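Among 143 items tested (103 named genes and the means of 40 lists), 9 had 1 mouse whose difference lay far from the other 3 of the 4, by Dixon's criterion at 4 values. Chance alone gives such a mouse in about 1 in 20 groups that were not chosen by their values. Many of the named genes were chosen by these same 4 differences, Rian by its range over mice, so that rate cannot be applied to them. Mouse 123 stood apart for Nuf2 (2.9), Prodh (-3.73) and the mean of the genes of folding in the endoplasmic reticulum (0.87). Mouse 81 stood apart for Plk2 (1.75), Lox (1.89) and the mean of the Wnt targets and pericentral genes (-1.31). Mouse 124 stood apart for Rtn4 (1.87, higher) and Rian (-1.86, lower), and mouse 121 for Spink1 (1.44, the lowest of 4), where its 3 tumours read 10.54, 5.34 and 6.19. Lox, a crosslinker of collagen, differed by 0.55, 0.52 and 0.53 in mice 121, 124 and 123, and Rtn4, a reticulon of the endoplasmic reticulum, by 0.34, 0.34 and 0.09 in mice 121, 123 and 81. No cause was tested.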

How the results depend on the processing

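The count of genes past the adjusted p of 0.05 stayed at 0 with quantile normalization, median centring, the filter that kept the 12414 genes above 4.43 on at least 3 arrays, all probe sets, no intensity trend, no moderation, tumour 3 as the value of mouse 121, and the 3 tumours of mouse 121 as separate arrays with a fixed block for the mouse. It was 118 with the unnumbered tumour of mouse 121, 8 with its tumour 2, 104 with no block for the mouse and 206 with all mice fitted and mouse as random block; with a mouse left out it was 0 to 2. Genes higher in every mouse numbered 3454 to 3681 and genes lower 4160 to 4952 with a mouse left out, where fewer samples must share the sign, and the filter left 1973 lower. Counts at least 2-fold higher in each were 51 to 141 with a mouse left out, 89 with the unnumbered tumour, 19 with tumour 3 and 187 at 1.5-fold; counts lower were 20 to 54, 29, 2 and 80. With each of the 6 tumours taken singly, a setting chosen after seeing the data, the 4 counts were 1231, 1650, 8 and 1. Of 1534 values of named genes under alternatives, 1443 kept their direction and side of the threshold, 81 came to pass it and 10 changed sign. The latter were Etnppl (-1.21 to 1.08 with a mouse left out, -0.25 with the unnumbered tumour, -0.0221 with the fixed and -0.45 with the random block), Slc22a27 (-0.50 to 1.63, and without mouse 123 -0.25; -0.37 with tumour 3) and Cyp2b10 (-0.26 to 0.33; -0.45 with the unnumbered tumour and -0.44 with tumour 3). Under the filter, list medians were 0.17 for B and plasma cell markers (-0.12 without it), 1.10 for bile duct (0.13), 0.36 for neutrophil (0.08), 0.74 for imprinted (0.41) and 0.65 for basement membrane genes (0.39), and without mouse 121 that of YAP and TAZ targets was 0.50 (0.33 with it). The counts of list members with the same sign in all 4 mice differed by 3 or fewer under both scalings. The cause of these changes was not tested. No detection calls were used here, so genes near background are not marked as such.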

Other observations

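Many of the 46 genes at least 2-fold higher in each mouse belong to no list, among them the cell division genes Nuf2 and Cdkn3. The genes below, several of them genes of secreted proteins, were picked after their values were seen. Cpe, carboxypeptidase E of hormone-producing cells, read 8.10, 3.86 and 5.89 in the tumours of mouse 121, 5.52 in mouse 124, the highest value in mouse 123 and 7.90 in mouse 81, against 3.46 to 4.67 in adjacent livers. Csn3, kappa-casein, a milk protein, read 7.34, 4.07 and 4.42, then 5.94, 9.95 and 8.78, against 4.02 to 4.57. Cpe overlapped adjacent liver in tumour 2 of mouse 121 and Csn3 in tumours 2 and 3 of that mouse, and both were highest in mouse 123. Itih5, of the inter-alpha-trypsin inhibitor family, differed by 1.89, 1.32, 4.48 and 3.33. Wfdc3 and Wfdc16, of the whey acidic protein family, differed by 2.60, 1.06, 2.26 and 1.83, and by 2.04, 1.03, 2.24 and 1.02. Tagln2, an actin-binding protein, was 1.12, 1.17, 4.21 and 3.44 higher, and Elapor1 read 7.91 and 8.45 in the unnumbered tumour and tumour 2 of mouse 121 and 4.19 in tumour 3.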
